A study of Arabidopsis thaliana with 4 samples.

Results

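The genes described here code for enzymes and proteins of the plant cell wall other than the alpha-expansins. They were taken from the array annotation as single-gene probe sets whose symbol is that of an XTH, CSL, CESA, FLA, AGP, EXPB, EXLA or EXLB gene with its number, to which AT1G62770 of the pectin methylesterase inhibitor (PMEI) family was added by locus number. This gave 26 genes, each with 1 probe set, of 13356 genes with a single-gene probe set and 22746 probe sets in all. They were 9 XTH genes, 8 CSL genes, 4 EXPB genes, 3 EXLA genes, 1 EXLB gene and AT1G62770. The CESA, FLA and AGP families had 0 single-gene probe sets under such a symbol and are not analysed here. The current gene records name 33 XTH, 32 CSL, 6 EXPB and 6 EXLA or EXLB genes by symbol or synonym, so each of these families is seen in part. A pair of genes that carry such a name only as a synonym, EXGT-A3 (XTH27) and AT4G30380 (EXLB2), lay outside the rule.

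The study asked how a strong albino mutation alters expression in Arabidopsis thaliana. Total RNA of albino plants (2 arrays) and of normal-looking plants segregating from the same parental line (2 arrays, the controls) was profiled. The line is DS 13-2198-1, and the labels name neither the mutated gene nor the ecotype. Both kinds of plant shared a plate of 1/2 MS medium with 2% sucrose and were 3 weeks old, kept at 23 °C with 16 h of light and 8 h of dark. Groups follow the sample titles, while a free-text label calls all 4 samples wild type. Both groups thus had sugar in the medium. Whether an array held 1 plant or a pool is not stated. Both measured leaf markers were bright on all 4 arrays and higher in albino plants in both pairs of arrays. RCA had log2 values from 12.18 to 12.54 and differed by 0.26 and 0.16, and LHCB4.2 had values from 10.28 to 11.85 and differed by 1.58 and 1.12. An effect of the albino state on these markers and a difference in leaf content cannot be told apart here. The part of leaf content in the values below was not tested.

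The plant primary wall is a network of cellulose microfibrils tethered by xyloglucan and embedded in pectin, and it yields as cells grow. CSLC proteins build the glucan backbone of xyloglucan, CSLA proteins build mannans, and CSLD proteins act where cells grow at a tip, as in root hairs. XTH enzymes cut xyloglucan chains and rejoin or hydrolyse them. Beta-expansins (EXPB) loosen walls without cutting them, and expansin-like proteins (EXLA, EXLB) share their domains but have no established loosening activity. PMEI proteins block pectin methylesterases, which remove methyl groups from pectin and so alter how it gels.

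All values are log2 RMA values, so a difference of 1 is 2-fold. Differences are albino minus control, given for the 2 arrays numbered replicate 1 (pair 1) and the 2 numbered replicate 2 (pair 2), because the deposited values appear to have been normalized pair by pair. In bulk RNA, fewer cells of a type and less RNA per cell cannot be told apart. The largest difference of the 26 genes was that of AT1G62770, which was higher in albino plants, and the next in size were those of XTH18 and XTH29, both lower. These 3 were the members that differed at least 2-fold in both pairs, 1 higher and 2 lower. On the whole array 0.813% of probe sets exceeded that size upwards and 0.963% downwards in both pairs. In limma's fit none of the 26 had an adjusted p under 0.05, and neither did any other probe set (0 of 22746, 0%), so the differences below are measured values with their errors and not calls. Without albino replicate 2, AT1G62770 and XTH18 passed (limma adjusted p = 0.0193 and 0.0328), along with 0.132% of all probe sets called higher and 0.668% called lower. That fit has a single albino array, and the controls alone supply its spread. At an unadjusted limma p under 0.05 there were 2 members higher (AT1G62770 and XTH19) and 2 lower (XTH18 and XTH29), beside 2.68% and 3.08% of all probe sets. The fit with all 4 arrays has no block for the replicate number. With that block 0 of 22746 probe sets passed after adjustment, and the smallest limma adjusted p was 0.217. Members under an unadjusted 0.05 with the block are not listed, since the share of all probe sets there was not counted.

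**Figure D1:**
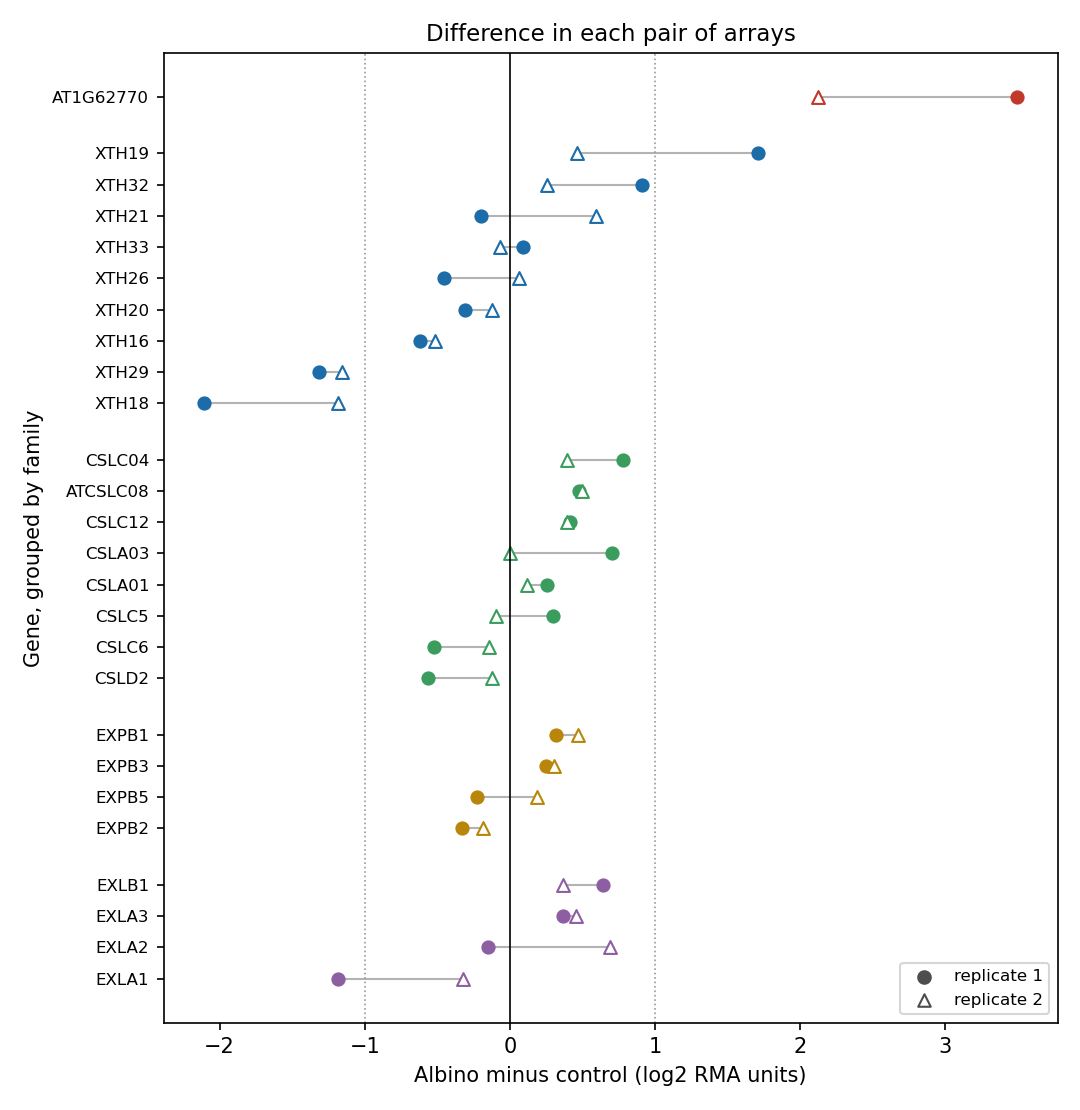
Albino minus control difference of each of the 26 genes on the log2 scale (x axis), with genes grouped by family (y axis). Filled circles are replicate 1, open triangles are replicate 2, and dotted lines mark a 2-fold difference in either direction. AT1G62770 lies beyond the dotted line on the right in both pairs, at 3.49 and 2.13, and XTH18 and XTH29 lie beyond the one on the left in both.

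AT1G62770, the PMEI family gene, had values of 6.09 and 7.21 in control replicates 1 and 2 and of 9.58 and 9.33 in albino replicates 1 and 2. Both albino arrays lay above both control arrays, and the controls differed from each other more than the albino arrays did. The value was 11.3-fold higher in pair 1 and 4.37-fold higher in pair 2. The means were 6.65 ± 0.79 in controls and 9.46 ± 0.18 in albino plants (SD, n = 2 each), which differ by 2.81 (SE 0.42, limma adjusted p = 0.590). Of all 22746 probe sets, 9 including this one were higher by at least as much in both pairs. AT1G62770 was listed alone of its family and with earlier results of these arrays known, so its place near the edge of the distribution is a description of a chosen gene.

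The XTH family was mixed. Of its 9 measured genes 2 were higher in both pairs, 4 were lower in both and 3 had opposite signs (5 and 2 with cyclic loess, where XTH26 was lower in both), where 34.6%, 28.5% and 36.7% of all probe sets did so. The median difference was -0.31 in pair 1, -0.06 in pair 2 and -0.20 for the mean of both, against 0.01, 0.03 and 0.02 over all probe sets. The family spanned -1.64 to 1.08, so its median describes few of its members.

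XTH18, one of the close group of XTH17 to XTH20 genes known from root expression, had 7.45 and 7.98 in the controls and 5.35 and 6.80 in the albino arrays of replicates 1 and 2. Both albino values were below both control values, and the albino arrays were 1.45 apart. The value was 4.30-fold lower in pair 1 and 2.27-fold lower in pair 2. The control mean was 7.72 ± 0.38 and the albino mean 6.08 ± 1.03 (SD, n = 2 each), giving -1.64 (SE 0.52, limma adjusted p = 0.750). XTH18 was the member with the widest spread between its albino arrays.

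XTH29 had control values of 5.21 and 5.65 and albino values of 3.89 and 4.49. The groups did not overlap, and the differences in the pairs, -1.32 and -1.16, were close. It was 2.49-fold lower in pair 1 and 2.23-fold lower in pair 2, and the difference of the means was -1.24 (SE 0.33, limma adjusted p = 0.734). Its probe set was among the dimmer 50% of the array, where RMA compresses differences.

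XTH19 lies directly next to XTH18 on the chromosome, with 0 protein-coding genes between them, and belongs to the same close group. Its difference had the opposite sign. Its values were 6.01 and 6.97 in the controls and 7.72 and 7.43 in the albino arrays, which did not overlap. It was 3.27-fold higher in pair 1 and 1.38-fold higher in pair 2, with a mean difference of 1.08 (SE 0.39, limma adjusted p = 0.795). The difference of XTH18 minus that of XTH19 was -3.81 in pair 1 and -1.64 in pair 2. An exact two-sided permutation test of this contrast over the 4 arrays gave p = 0.333, the smallest p that 2 against 2 arrays allow. Both probe sets carry the plain name form that marks a set designed for a single transcript, and cross-hybridization between these near relatives was not tested.

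**Figure D2:**
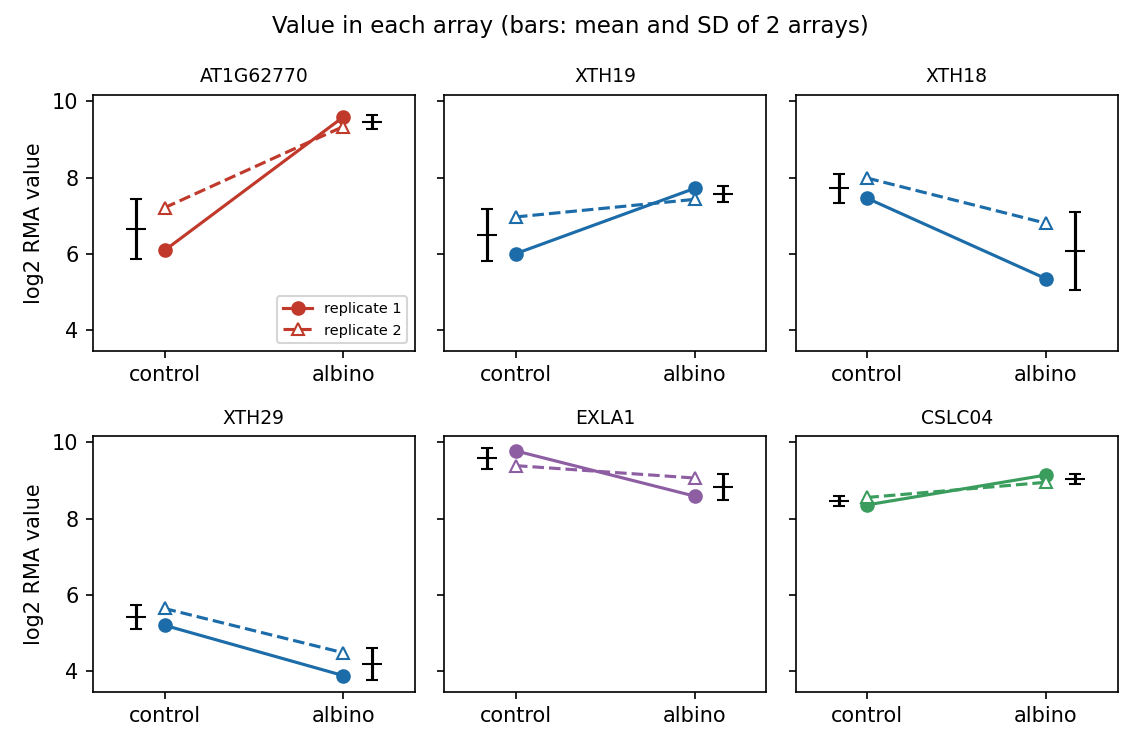
Log2 RMA value in each array (y axis) for 6 genes, in control and albino plants (x axis). Lines join the arrays of the same replicate number (filled circles and solid lines for replicate 1, open triangles and dashed lines for replicate 2), and black bars give the mean and SD of the 2 arrays of a group. The albino values of AT1G62770, 9.58 and 9.33, sit above both controls, those of XTH18 and XTH29 below, and the lines of XTH19 and XTH18 slope in opposite directions.

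Of the 4 lower XTH genes, XTH16 had the smallest gap between the pairs. It had 6.23 and 6.82 in the controls and 5.61 and 6.30 in the albino arrays, a difference of -0.62 in pair 1 and -0.51 in pair 2. The groups overlapped, since control replicate 1 lay below albino replicate 2. XTH32, which belongs with XTH31 to the subgroup known for hydrolysing xyloglucan, had 7.36 and 8.14 in the controls and 8.27 and 8.39 in the albino arrays. The groups did not overlap, but the difference was 0.91 in pair 1 and 0.26 in pair 2.

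XTH20, the third measured gene of the XTH17 to XTH20 group, was slightly lower in both pairs, by differences of -0.31 and -0.12. XTH33, which codes for a membrane-anchored form, was level within its spread, at 0.09 and -0.06. XTH26, known from root hairs, differed by -0.46 in pair 1 and 0.06 in pair 2. XTH21, known for a part in root growth, differed by -0.20 and 0.59. XTH20, XTH21 and XTH26 were among the dimmest 25% of probe sets. No order can be read among their differences. EXGT-A3, the relative outside the rule, differed by -0.29 and -0.20.

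Of the root markers, PYK10 was lower in both pairs, as XTH18 was. Of 4 listed root markers 3 were measured, and the log2 of their summed linear values was 11.21 and 10.88 in the controls and 9.01 and 10.24 in the albino arrays. The abundant root gene PYK10 made up most of that sum and differed by -2.29 in pair 1 and -0.67 in pair 2. The dim root hair genes EXPA7 and EXPA18 differed by -0.70 and 0.14, and by 0.18 and 0.27. Of the same root-known group as XTH18, XTH19 was higher in both pairs on these arrays and the dim XTH20 was lower in both (-0.31 and -0.12). The part of root content in the XTH values was not tested.

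In the CSL family 5 of 8 genes were higher in both pairs (4 when all arrays were normalized together, where CSLA03 changed sign in pair 2), 2 were lower in both and 1 had opposite signs. Of all probe sets 34.6%, 28.5% and 36.7% did so. The CSL differences were small, from -0.34 to 0.59, and 0 of the 8 reached 2-fold in both pairs. The CSL median stood at 0.36 in pair 1 and at 0.06 in pair 2, against 0.01 and 0.03 over all probe sets. The 5 measured CSLC genes, for xyloglucan backbone synthases, did not all have the same sign.

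CSLC04 had 8.36 and 8.56 in the controls and 9.15 and 8.96 in the albino arrays, which did not overlap. It was 1.72-fold higher in pair 1 and 1.32-fold higher in pair 2, with a mean difference of 0.59 (SE 0.26, limma adjusted p = 0.927). Its replicates were close, with an SD of 0.14 in controls and 0.13 in albino plants. ATCSLC08 had 5.46 and 6.04 in the controls and 5.94 and 6.53 in the albino arrays, a difference of 0.47 in pair 1 and 0.50 in pair 2. The pairs gave nearly the same difference, yet the groups overlapped because both arrays of replicate 2 were higher than those of replicate 1.

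CSLC12, at a dim signal, had 3.95 and 3.70 in the controls and 4.36 and 4.10 in the albino arrays. It too had nearly equal differences, 0.41 and 0.40, and its groups did not overlap. CSLC5 differed by 0.30 in pair 1 and -0.09 in pair 2. CSLC6 was lower in both pairs, by differences of -0.52 and -0.15, with overlapping groups. Thus 3 of the 5 CSLC genes were higher in both pairs, 1 was lower and 1 had opposite signs.

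Of the mannan synthase genes, CSLA01 differed by 0.26 and 0.12 at a dim signal. CSLA03 had 4.37 and 5.64 in the controls and 5.07 and 5.64 in the albino arrays, so its difference of 0.70 in pair 1 had no counterpart in pair 2. In pair 2 it was so close to 0 that its sign turned when all 4 arrays were normalized together by quantiles or by cyclic loess. CSLD2, known from root hair growth, had 9.11 and 9.08 in the controls and 8.54 and 8.95 in the albino arrays. The groups did not overlap, and the difference was -0.56 in pair 1 and -0.12 in pair 2. Of the 3 measured root markers PYK10 was lower in both pairs (-2.29 and -0.67), while the root hair genes did not go with it: EXPA7 had opposite signs (-0.70 and 0.14) and EXPA18 was higher in both (0.18 and 0.27). The part of root content in the CSLD2 value was not tested.

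**Figure D3:**
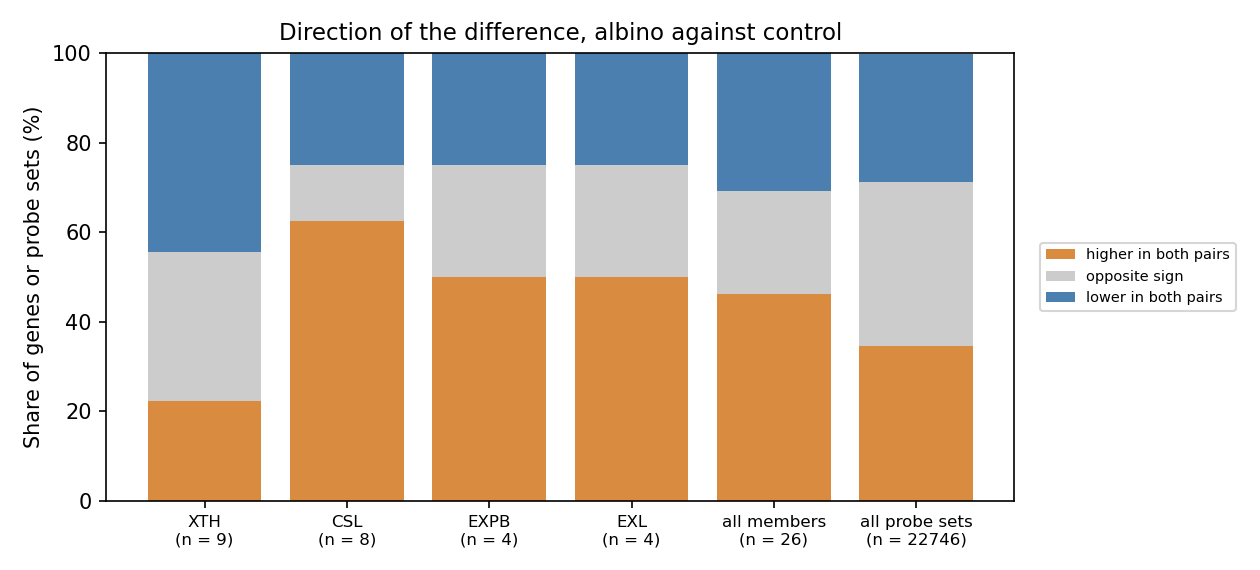
Share of genes or probe sets in percent (y axis) that were higher in albino in both pairs, of opposite sign, or lower in both, for each family, all 26 genes and all 22746 probe sets (x axis). XTH has 44.4% lower in both pairs and CSL 62.5% higher in both, on 9 and 8 genes, while all probe sets have 34.6% higher and 28.5% lower.

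The 4 beta-expansin genes had small differences, from -0.26 to 0.39 for the mean of both pairs, and all 4 were among the dimmer 50% of probe sets. EXPB3 had 5.29 and 5.33 in the controls and 5.54 and 5.64 in the albino arrays. Its groups did not overlap, with differences of 0.25 and 0.30. The SE was 0.25 in limma's fit without a block and 0.15 with the replicate number as a block. EXPB1 had 4.04 and 4.83 in the controls and 4.35 and 5.30 in the albino arrays, higher by 0.32 and 0.47 within the pairs but with overlapping groups. EXPB2 was lower in both pairs, by differences of -0.33 and -0.18. EXPB5 had opposite signs, -0.23 and 0.19.

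The expansin-like genes were led by EXLA1, which had 9.78 and 9.39 in the controls and 8.59 and 9.07 in the albino arrays. Both albino values were below both controls. It was 2.27-fold lower in pair 1 but 1.25-fold lower in pair 2, with a mean difference of -0.75 (SE 0.31, limma adjusted p = 0.873). Its direct neighbour on the chromosome, EXLA3, was higher. EXLA3 had 4.19 and 4.25 in the controls and 4.56 and 4.70 in the albino arrays, differences of 0.36 and 0.46 with no overlap of the groups. Unlike EXLA1, it was among the dimmer 50% of probe sets, and its mean difference was 0.41 (SE 0.25). The difference of EXLA3 minus that of EXLA1 was 1.55 in pair 1 and 0.78 in pair 2 (exact two-sided permutation p = 0.333, again the smallest possible). As with XTH18 and XTH19, adjacent genes of 1 family thus had differences of opposite sign in both pairs.

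EXLB1 had 4.86 and 6.06 in the controls and 5.50 and 6.42 in the albino arrays. The value was higher by 0.64 and 0.36 within the pairs, while the control arrays were 1.20 apart and the groups overlapped. EXLA2 differed by -0.15 in pair 1 and 0.69 in pair 2, the widest gap among the 6 genes of opposite sign. AT4G30380, the relative outside the rule, was dim and differed by -0.26 and -0.05.

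Over all 26 genes, 12 were higher in both pairs (46.2%) and 8 lower in both (30.8%), and 6 had opposite signs (XTH21, XTH26, XTH33, CSLC5, EXLA2 and EXPB5). Of all probe sets 34.6%, 28.5% and 36.7% did so. Groups did not overlap for 11 of the 26 genes, with the albino arrays above the controls for 7 and below for 4. Over all probe sets 16.2% lay above and 13.6% below. The median size of a difference, sign ignored, was 0.46 in pair 1 and 0.34 in pair 2 for the 26 genes, and 0.30 and 0.19 for all probe sets. The difference was the larger one in pair 1 for 20 of the 26 genes, where 66.8% of all probe sets showed this. Pair 1 and pair 2 have no array in common, and Pearson's r between them was 0.87 across the 26 genes, 0.77 without AT1G62770 and 0.59 across all probe sets. These are descriptions across genes of the same arrays, which are not independent replicates.

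**Figure D4:**
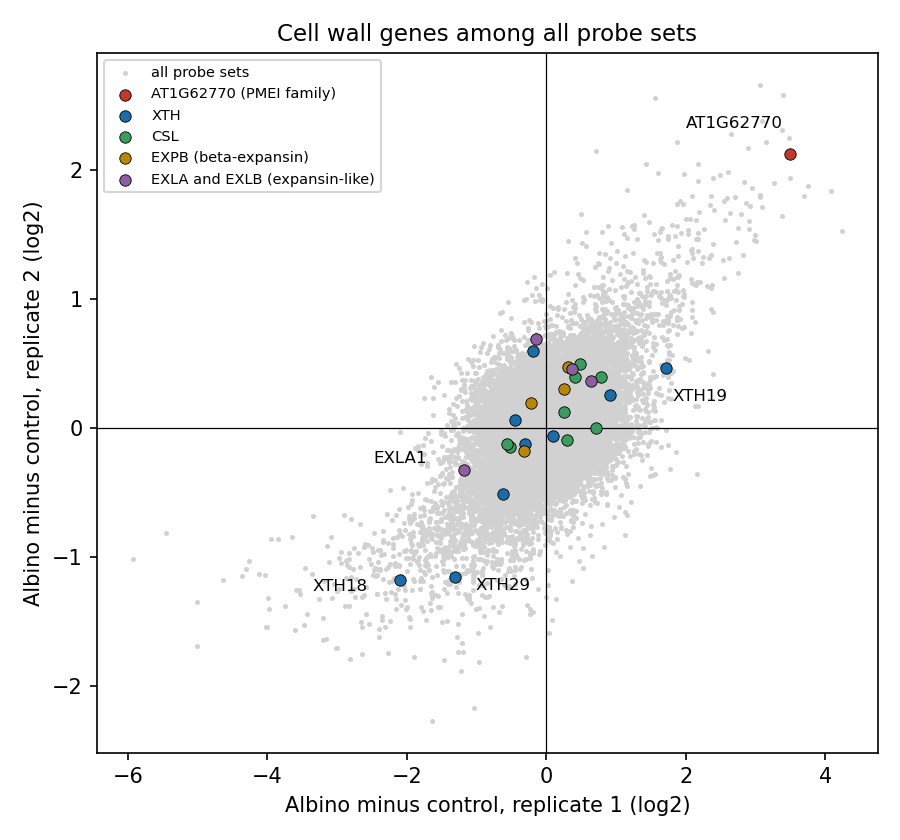
Albino minus control difference in replicate 1 (x axis) against that in replicate 2 (y axis), both log2, for all 22746 probe sets (grey) and the 26 cell wall genes (coloured by family). AT1G62770 lies at the upper right edge at 3.49 and 2.13, XTH18 and XTH29 lie at the lower left, and most other members lie within the main cloud.

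Other wall genes were taken as whole lists. None of their measured members passed limma's test. Of 58 listed pectin genes 5 were measured, of which 1 was higher and 3 lower in both pairs, with a median difference of -0.18. The lower ones were pectin methylesterase genes, the class of enzyme that PMEI proteins block. ATPMEPCRB had 8.39 and 8.64 in the controls and 5.13 and 7.32 in the albino arrays, differences of -3.26 and -1.33 (mean -2.29, SE 0.70). PMEPCRF differed by -0.92 and -0.54 and PME61 by -0.23 and -0.13, while the methylesterase gene ATPMEPCRD differed by 0.17 and 0.20. Thus 3 of the 4 methylesterase genes matched from this list were lower in both pairs, as were 28.5% of all probe sets, while AT1G62770 was higher. Methylesterase genes on the array that the list did not match were not counted, so these 4 do not stand for the whole class. PME61 and ATPMEPCRD were dim, and their mean differences (-0.18 and 0.19) were smaller than their SEs (0.27 and 0.25). A link between AT1G62770 and the methylesterase genes was not tested.

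Of 23 listed xylan and secondary wall genes 4 were measured, with 2 higher and 1 lower in both pairs and a median difference of 0.51. The higher ones, both at a dim signal, were the xylan synthesis genes IRX15 (0.74 in each pair) and IRX15-L (1.01 and 0.51). Of 24 lignin genes 3 were measured, 2 of them lower in both pairs, with a median of -0.65. They were HCT of the monolignol pathway (-0.84 and -0.47) and the peroxidase gene PRX52 (-1.39 and -1.18). Of 26 alpha-expansin genes 10 were measured, with 5 higher, 3 lower and 2 of opposite sign and a median of 0.02, and EXPA8 was the 1 that was at least 2-fold higher in both pairs. The lists of cellulose accessory proteins, xyloglucan side chain genes, extensins and secondary wall regulators had 0 members measured under these names and are not analysed here.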

How the data were processed

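In all, 4 arrays of total RNA were used, 2 per group. The authors deposited log2 probe-set summaries, and the submitters' processing notes name RMA as the method, without software or version. RMA values carry no detection call, and precision is limited by having 2 arrays a group. The largest gap between quantiles was 0.070 in pair 1 and 0.085 in pair 2 but 0.354 between the control arrays, which is why every gene is given within each pair. Probe sets were named from the platform annotation (13513 with 1 gene, 503 with several, 8730 unnamed here), with current records of TAIR10.1 used only for names and neighbours. No source used here gives the array's genome build, so no coordinates are printed.

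The two-sided moderated test of limma 3.58.1 (R 4.3.3) was fitted to all 22746 probe sets, with p-values adjusted by Benjamini-Hochberg and a threshold of 0.05. The code was tested on simulated data. SEs are those of this moderated fit and SDs are over 2 arrays. The fit has no block for the replicate number, so offsets shared by same-numbered arrays count as spread in its SEs and p-values. Nothing says that the replicates came from separate plants, so the p-values reflect array-to-array spread that may be technical. The members and lists were chosen with earlier results of these data known. Every member is named, each having 1 probe set, and the other lists were taken whole. Family counts and medians are descriptions without a test. Alternatives were other scalings, filters on dim probe sets, another prior, the replicate number as a block, 1 array left out, and other thresholds. A planned search for promoter motifs was not run, since no sequences were used here.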

Additional observations from a re-analysis of the deposited data

How the results depend on the processing

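With all 4 arrays, no scaling, filter or prior made a member or any other probe set pass limma's test, and none had an adjusted p under 0.1 in the fit as reported. The replicate numbers are shared by title only. Same-numbered arrays deviated together from their group means (Pearson's r 0.66 across probe sets). With the replicate number as a block 0 were again called. The smallest adjusted p of limma was then 0.217, a value tied over many probe sets. AT1G62770, XTH18 and XTH29 were among these, so the value does not set them apart. The block left every difference and family median as it was. Without albino replicate 2, which leaves a single albino array assumed to vary like the controls, 30 probe sets were called higher and 152 lower, among them 1 member higher (AT1G62770, 2.94, adjusted p = 0.0193) and 1 lower (XTH18, -2.37, adjusted p = 0.0328). Over the 4 fits without 1 array these counts thus ran from 0 to 30, 0 to 152, 0 to 1 and 0 to 1, and the medians from -0.27 to -0.017 for XTH, 0.056 to 0.29 for CSL, -0.051 to 0.14 for EXPB, 0.13 to 0.41 for EXLA and EXLB, 0.027 to 0.19 for all members and 0.00058 to 0.035 for all probe sets. The median of all members (0.19) was 0.16 with quantile normalization, 0.16 with cyclic loess and 0.28 without the dimmest 25% of probe sets, and that of all probe sets (0.02) was -0.0011 with cyclic loess. Leaving out the dimmer 50% removed 14 of the 26 genes and all of EXPB, which has no value there. It left 5 higher, 5 lower and 2 of opposite sign in both pairs, with 1 at least 2-fold lower (XTH18), and moved the XTH median from -0.20 to 0.0081, the CSL median from 0.27 to 0.10 and the EXLA and EXLB median from 0.34 to -0.24. Leaving out the dimmest 25% moved the EXPB median from 0.13 to 0.28. XTH33 changed sign with all 4 arrays under cyclic loess, and 11 of the 26 genes changed sign in at least 1 alternative, 10 of them only when an array was left out. AT1G62770 (2.25 to 3.37), XTH18 (-2.37 to -0.92), XTH29 (-1.54 to -0.94) and XTH19 (0.60 to 1.56) did not. Each gene had 1 probe set without a cross-hybridization suffix, so the alternatives on probe set choice changed no member. What caused the remaining changes was not tested.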
